A study of Homo sapiens with 4 samples.

Results

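APOBEC3 and ADAR genes encode deaminases, enzymes that rewrite single bases in nucleic acids. The group described here is defined by gene symbol and held 9 of the 58735 genes of the count table: the 7 APOBEC3 genes (APOBEC3A, APOBEC3B, APOBEC3C, APOBEC3D, APOBEC3F, APOBEC3G and APOBEC3H) and the adenosine deaminases ADAR and ADARB1. RNA was sequenced from HCC1954, an established HER2-positive human breast cancer cell line, in 2 samples that received a scrambled hairpin (shCON) and 2 that received one targeting ZDHHC15 (shZDHHC15), a gene for a palmitoyltransferase. Both groups received GIPZ hairpin vectors. The sources describe the knockdown both as stable and as a transient lipid transfection with harvest after 36 h, and they also mention screened single-cell cultures. They do not tell whether samples 1 and 2 of a group were separate cultures, repeats of one clone or different hairpins, so p-values measure the spread between these samples, which may be technical. The comparison asks which deaminase transcripts differed in abundance when ZDHHC15 was depleted.

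APOBEC3 enzymes convert cytosine to uracil, mainly in single-stranded DNA. They restrict retroviruses and retroelements, and APOBEC3A and APOBEC3B are also known as sources of mutations in the genomes of breast and other carcinomas. ADAR and ADARB1 encode ADAR1 and ADAR2, which convert adenosine to inosine in double-stranded RNA. ADAR1 has a longer isoform made from an interferon-inducible promoter and a shorter isoform made constitutively, and its editing of cellular double-stranded RNA is known to keep that RNA from being sensed as foreign.

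The 7 APOBEC3 genes lie side by side on the plus strand of chromosome 22, at chr22:38952741-39104067 of GRCh38, a stretch of 151.3 kb. Their catalytic site is built around a zinc ion held by a histidine and a pair of cysteines, next to a glutamate that takes part in catalysis. APOBEC3A, APOBEC3C and APOBEC3H had 1 such motif in the coding sequence of the GENCODE 29 transcript examined, and APOBEC3B, APOBEC3D, APOBEC3F and APOBEC3G had 2. The coding stretches from the histidine codon to the second cysteine codon are shown for the tested APOBEC3 genes and for motifs identical to theirs. They are shown because the reads of near-identical genes can be counted on the wrong member. Capitals mark the codons of the histidine, the glutamate and the cysteines. APOBEC3A and the second motif of APOBEC3B (chr22:38961420-38961530 and chr22:38991365-38991475) had the same 111 bases. The first motifs of APOBEC3B and APOBEC3F (chr22:38985833-38985937 and chr22:39044962-39045066) had the same 105 bases. The second motifs of APOBEC3F and APOBEC3D (chr22:39052095-39052199 and chr22:39031715-39031819) were also identical, and they differed from the motif of APOBEC3C (chr22:39017787-39017891) at 4 of 105 bases, an identity of 96.2%.
APOBEC3A and APOBEC3B motif 2: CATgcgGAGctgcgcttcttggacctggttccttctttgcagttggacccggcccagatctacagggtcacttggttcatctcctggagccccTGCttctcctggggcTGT
APOBEC3B motif 1 and APOBEC3F motif 1: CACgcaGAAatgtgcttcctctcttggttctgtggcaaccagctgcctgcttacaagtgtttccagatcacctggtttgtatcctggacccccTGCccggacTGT
APOBEC3C motif: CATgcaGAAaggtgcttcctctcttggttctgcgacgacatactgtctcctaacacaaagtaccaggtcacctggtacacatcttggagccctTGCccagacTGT
APOBEC3F motif 2 and APOBEC3D motif 2: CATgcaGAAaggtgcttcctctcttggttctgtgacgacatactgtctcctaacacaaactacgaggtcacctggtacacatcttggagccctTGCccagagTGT

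The adenosine deaminases share the histidine and glutamate arrangement, with the first cysteine further along. The coding stretch of ADARB1 from the histidine codon through the first cysteine codon and the codon after it, spliced across introns, lies within chr21:45182686-45183470 on the plus strand. It is shown as an example of a gene without shared windows of 100 bases. Both ADARB1 and ADAR, unlike most of the APOBEC3 genes, shared 0% of these windows with another gene. Capitals again mark the codons of the histidine, the glutamate and the cysteine.
ADARB1: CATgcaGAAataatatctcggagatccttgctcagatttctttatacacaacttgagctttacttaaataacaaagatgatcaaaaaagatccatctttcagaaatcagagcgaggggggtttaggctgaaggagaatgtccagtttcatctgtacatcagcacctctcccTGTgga

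The libraries held between 17560982 and 19118704 counts on genes, and 23153 to 24773 genes had at least 1 count. A count of 0 allows up to 3 counts, or 0.153 to 0.178 counts per 1000000 counts of the TMM-scaled library (CPM), and such floors cover counting error only. ZDHHC15 had 17617 and 15716 counts in shCON and 0 and 0 in shZDHHC15. The labels name a hairpin against this gene but do not state a complete loss, and why no count remained was not tested. Markers of breast epithelium were present in all samples, with 92598 to 101910 counts of ERBB2, the HER2 receptor gene. The summed level of 8 such markers was 18960 and 20654 CPM in shCON and 11034 and 11389 CPM in shZDHHC15. Of the 8, 6 were called lower and 1 higher, against 20.3% and 21.7% of all genes tested. The following 3 were named after their values were seen. KRT8, a keratin gene, fell most, by 1.62 on the log2 scale. KRT19, another keratin gene, was called higher (0.44, adjusted p = 0.0115), and CDH1 did not pass the test (-0.05, adjusted p = 0.706). The part of this shift in the results for the deaminase genes was not tested.

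In the knockdown samples ADAR and APOBEC3F were more abundant, by 2.69-fold and 2.31-fold, and APOBEC3B was modestly less abundant, by 22% of its shCON level. APOBEC3C and ADARB1 did not pass the test. APOBEC3A, APOBEC3D, APOBEC3G and APOBEC3H had too few counts to be tested. Thus 5 of the 9 members passed the filter on low counts, and of these 2 were called higher, 1 lower and 2 neither, at an adjusted p under 0.05 from edgeR's quasi-likelihood test over 15817 genes. Among all genes tested, 21.7% were called higher and 20.3% lower, so the members' counts are read against a comparison in which 42.0% of genes passed. The 2 groups did not overlap for any of the 5: both shZDHHC15 samples lay above both shCON samples for 3 members and below them for 2, against 37.2% and 35.3% of all genes tested. The median log2 fold change was 0.19 for the 5 members and 0.02 for all genes tested. The cells are read in bulk, and fewer cells expressing a gene cannot be told apart from less RNA per cell.

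**Figure D1:**
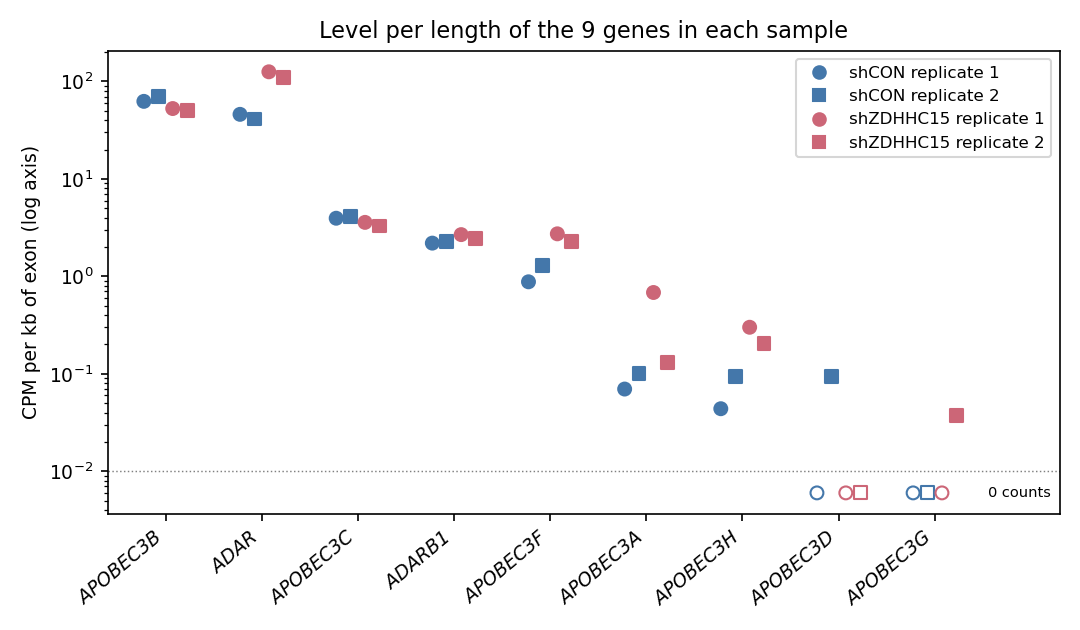
Level of each gene in each sample, as CPM per kilobase of exon on a log axis; circles are samples numbered 1 and squares samples numbered 2, shCON in blue and shZDHHC15 in red, and open symbols under the dotted line are samples with 0 counts. ADAR rises above APOBEC3B in the shZDHHC15 samples, APOBEC3F is higher in both of them, and APOBEC3D and APOBEC3G have counts in 1 sample each.

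ADAR (ENSG00000160710, chr1:154582057-154628013, minus strand) encodes the ubiquitous editing enzyme ADAR1. It had 8130 and 6749 counts in shCON and 22687 and 20703 in shZDHHC15. Scaled to library size this was 446 and 400 CPM against 1218 and 1055 CPM, or 423 ± 32.4 against 1137 ± 116 CPM (SD, n = 2). The lower shZDHHC15 sample lay far above the higher shCON sample. The log2 fold change was 1.43 (SE 0.098, 95% interval 1.22 to 1.63, adjusted p = 3.86e-08), and ADAR ranked 749 by the size of the rise among the 15817 genes tested. Per kilobase of exon, ADAR stood above 91.1% of the tested protein-coding genes in shCON and above 97.7% in shZDHHC15.

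The gene-level counts of ADAR cannot be divided between the interferon-inducible and the constitutive isoform. GENCODE 29 lists 12 protein-coding transcripts of the gene. Of these, 5 start at chr1:154627609-154628013 and 5 at chr1:154608170-154608825, and the remaining 2 start at positions 154606300 and 154602571. The table gives 1 count for all of them, so which start the added reads came from was not tested.

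ADARB1 (ENSG00000197381, chr21:45073853-45226560, plus strand) encodes ADAR2, which edits neuronal receptor transcripts and is also present outside the brain. It had 402 and 387 counts in shCON and 502 and 480 in shZDHHC15, or 22.5 ± 0.631 against 25.7 ± 1.77 CPM (SD, n = 2). Both shZDHHC15 samples lay above both shCON samples, but the log2 fold change of 0.19 (SE 0.13) did not pass the test (adjusted p = 0.239). Its 95% interval of -0.08 to 0.46 lay wholly below that of ADAR. The ratio of ADAR to ADARB1 per length was 20.97 and 18.1 in shCON and 46.9 and 44.7 in shZDHHC15. The groups did not overlap, and an exact two-sided permutation test gave p = 0.333, the smallest that 2 against 2 samples allow.

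APOBEC3B (ENSG00000179750, chr22:38982347-38992804) encodes a nuclear enzyme with a catalytic and a non-catalytic domain. It was the APOBEC3 gene with the most counts, 2162 and 2251 in shCON and 1863 and 1884 in shZDHHC15. Its level was 119 and 133 CPM in shCON and 100.1 and 96.0 CPM in shZDHHC15, a mean of 126 ± 10.5 against 98.0 ± 2.88 CPM (SD, n = 2). Both shZDHHC15 samples lay below both shCON samples. The log2 fold change was -0.36 (SE 0.10, 95% interval -0.57 to -0.15, adjusted p = 0.00863). The call was lost without the second shZDHHC15 sample, where the log2 fold change was -0.34 (SE 0.15, adjusted p = 0.0716). Per length, APOBEC3B stood above 94.5% of the tested protein-coding genes in shCON and 93.4% in shZDHHC15.

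APOBEC3F (ENSG00000128394, chr22:39040604-39053910) encodes a restriction factor of retroviruses that lack Vif, the lentiviral protein that has APOBEC3 enzymes degraded. It had 52 and 71 counts in shCON and 165 and 145 in shZDHHC15, or 3.53 ± 0.959 against 8.12 ± 1.04 CPM (SD, n = 2). Both shZDHHC15 samples had more than the higher shCON sample. The log2 fold change was 1.21 (SE 0.23, 95% interval 0.72 to 1.70, adjusted p = 7.26e-04). The interval is wider than that of ADAR, and leaving out each sample in turn gave log2 fold changes of 0.92 to 1.49, each of which passed the test.

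APOBEC3C (ENSG00000244509, chr22:39014083-39020352) encodes a single-domain enzyme found in many tissues. It had 203 and 195 counts in shCON and 188 and 182 in shZDHHC15, or 11.3 ± 0.301 against 9.68 ± 0.583 CPM (SD, n = 2). The log2 fold change of -0.23 (SE 0.16, 95% interval -0.57 to 0.11) did not pass the test (adjusted p = 0.273). The interval allows a fall as large as that of APOBEC3B, so a difference in change between these neighbours was not shown.

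**Figure D2:**
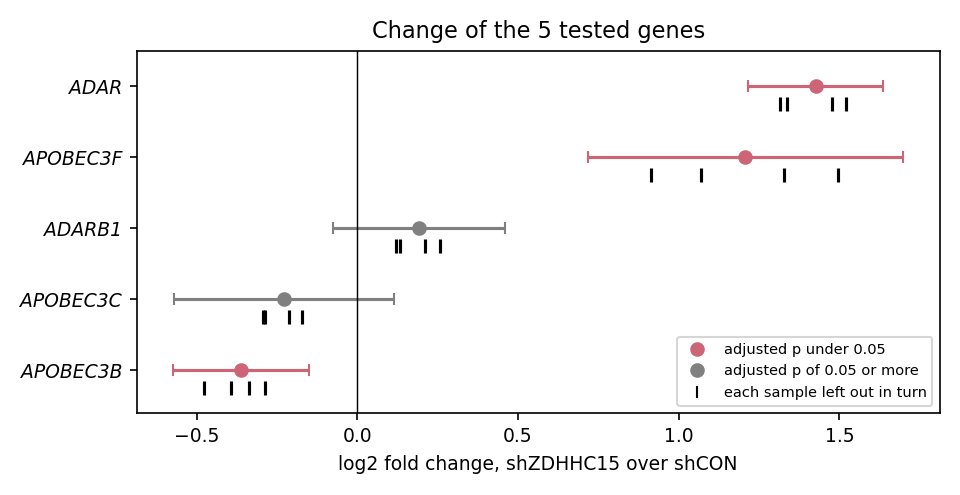
Log2 fold change (shZDHHC15 over shCON, x axis) of the 5 tested genes; points are edgeR estimates with 95% intervals, red where the adjusted p was under 0.05 and grey otherwise, and black ticks are the estimates with each of the 4 samples left out in turn. ADAR at 1.43 and APOBEC3F at 1.21 lie well above 0, and no estimate crosses 0 when a sample is left out.

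The 4 remaining APOBEC3 genes stood at or near the floor of 3 counts in shCON. APOBEC3A (ENSG00000128383, chr22:38952741-38992778), an enzyme of myeloid cells and keratinocytes with strong deaminase activity, had 3 and 4 counts in shCON and 30 and 6 in shZDHHC15. Most of its counts therefore came from the first shZDHHC15 sample, and the other lay 2 counts above the higher shCON sample. The ratio of the summed counts, corrected for library size, was 4.72, with a counting interval of 2.07 to 12.6 that leaves out the spread between samples. When every gene was tested without a filter, its log2 fold change was 2.18 (SE 0.95) and did not pass (adjusted p = 0.193). Leaving out a sample lets APOBEC3A pass the filter in 3 of 4 cases, each of which keeps the first shZDHHC15 sample with its 30 counts. Its log2 fold change was then 1.93 without the first shCON sample and 2.46 without the second. Without the second shZDHHC15 sample, which leaves the sample with 30 counts alone in its group, it was 2.97. Both the passing of the filter and these values rest on that 1 sample.

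APOBEC3H (ENSG00000100298, chr22:39097224-39104067), a single-domain restriction factor, had 1 and 2 counts in shCON and 7 and 5 in shZDHHC15. The groups did not overlap, and the ratio of summed counts was 3.67 with a counting interval of 0.991 to 20.3. In the test without a filter it did not pass (adjusted p = 0.187). APOBEC3G (ENSG00000239713, chr22:39077005-39087743), the best known restriction factor of HIV and an enzyme of lymphocytes, had 0 counts in both shCON samples and 0 and 4 in shZDHHC15. APOBEC3D (ENSG00000243811, chr22:39021113-39033276), another restriction factor, had 0 and 4 counts in shCON and 0 in both shZDHHC15 samples. Neither gene had counts in more than 1 sample, and no direction can be read from them at this depth.

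Levels of different genes are compared here only per kilobase of exon, on the CPM scale. In shCON the order was APOBEC3B at 66.5 ± 5.54, ADAR at 43.7 ± 3.34, APOBEC3C at 4.03 ± 0.107, ADARB1 at 2.24 ± 0.063 and APOBEC3F at 1.09 ± 0.296 CPM per kb (SD, n = 2). No neighbours in that order overlapped between samples. APOBEC3A, APOBEC3H, APOBEC3D and APOBEC3G followed at 0.0852 CPM per kb or less and could not be ordered among themselves. In shZDHHC15, ADAR came first at 117 ± 11.9, followed by APOBEC3B at 51.7 ± 1.52 and APOBEC3C at 3.44 ± 0.207 CPM per kb. ADARB1 at 2.56 ± 0.176 and APOBEC3F at 2.51 ± 0.322 CPM per kb then overlapped. APOBEC3B thus stood above ADAR in both shCON samples and below it in both shZDHHC15 samples. The level of APOBEC3B is given as counted, although part of its exons overlaps other genes.

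APOBEC3B made up nearly all of the APOBEC3 transcript level per length. Its share was 92.7% and 92.5% in shCON and 87.8% and 89.5% in shZDHHC15, while the share of APOBEC3F was 1.30% and 1.71% against 4.55% and 4.03%. The share of APOBEC3C stayed between 5.39% and 5.96%, and its groups overlapped. The summed level of the 7 genes was 67.5 and 76.1 CPM per kb in shCON and 60.1 and 56.6 in shZDHHC15, lower in both knockdown samples. The ratio of APOBEC3B to APOBEC3F per length was 71.1 and 54.2 in shCON and 19.3 and 22.2 in shZDHHC15. For the summed level, the share of APOBEC3B and this ratio, the exact two-sided permutation test gave p = 0.333 in each case, the smallest it can give.

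These levels depend on how reads from overlapping and near-identical genes were counted, and neither the counting rule nor its use of strand is given in the sources used here. Of the exon bases of APOBEC3D, 83.2% also belong to AL022318.4, an annotated gene that spans APOBEC3C and APOBEC3D on the same strand and had 0 counts in all 4 samples. Reads on these bases can go to either gene or to neither, so the low counts of APOBEC3D do not give its level. APOBEC3A has transcripts that run on into APOBEC3B, and 348 exon bases belong to both genes, 14.8% of those of APOBEC3A and 18.4% of those of APOBEC3B. With the antisense gene APOBEC3B-AS1, which had 1 or 2 counts in each sample, 23.3% of the exon bases of APOBEC3B overlap another gene. APOBEC3F, APOBEC3G, APOBEC3H and ADAR share no exon base with another gene.

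Shared sequence reaches further than shared position. Of the windows of 100 bases in transcripts of APOBEC3B, 26.6% also occurred in a transcript of another gene, against 18.4% for APOBEC3A, 80.2% for APOBEC3D, 13.3% for APOBEC3F and 5.05% for APOBEC3G. For APOBEC3F the main partner was APOBEC3G, with 8.56% of its windows. APOBEC3G had at most 4 counts in a sample. For APOBEC3C, APOBEC3H, ADAR and ADARB1 the share was 0%. The rise of ADAR was therefore measured on a gene without shared windows of this length, while the values of APOBEC3A, APOBEC3B and APOBEC3F carry an uncertainty that the table does not resolve.

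**Figure D3:**
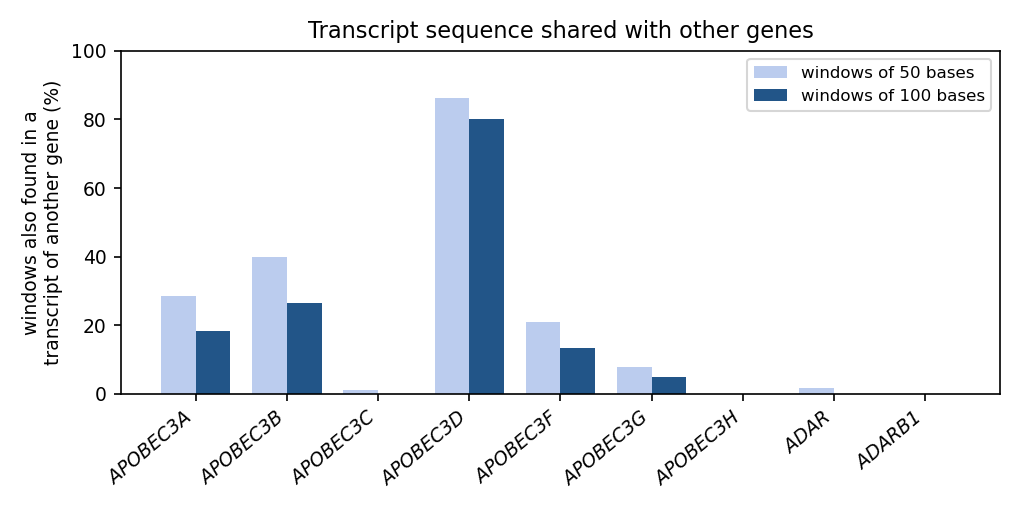
Share of each gene's transcript windows, in percent, that also occur in a transcript of another gene, for windows of 50 bases (light) and 100 bases (dark). APOBEC3D stands highest with 80.2% of windows of 100 bases, and APOBEC3C, APOBEC3H, ADAR and ADARB1 have none of that length.

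Within 250 kb of the APOBEC3 cluster the table lists 29 other genes, of which 12 were tested, 2 were called higher and 4 lower, against 21.7% and 20.3% of all genes tested, with a median log2 fold change of -0.03. The nearest tested genes on either side were CBX6 and CBX7, which encode Polycomb proteins, with log2 fold changes of -0.20 (adjusted p = 0.0841) and 0.29 (adjusted p = 0.187). Near ADAR only IL6R and UBE2Q1 were tested of 15 other genes. Neither passed the test, and DESeq2 called 0 of them, with 1 at an unadjusted p under 0.05. IL6R, the interleukin-6 receptor gene, had a log2 fold change of 0.28 (adjusted p = 0.064), and UBE2Q1, the nearer one, which encodes a ubiquitin-conjugating enzyme, -0.01 (adjusted p = 0.960). Around ADARB1, 12 of 25 other genes were tested and edgeR called 0 higher and 2 lower, beside 21.7% and 20.3% of all genes tested. An unadjusted p under 0.05 gave 0 higher and 3 lower there, and DESeq2 gave 0 and 1. The pseudogene SSR4P1, which overlaps ADARB1 on the opposite strand, had a log2 fold change of -0.12 (adjusted p = 0.790). Of the nearest tested genes beyond the ends of ADARB1, AP001505.1 had -0.36 (adjusted p = 0.116) and POFUT2, a fucosyltransferase gene, -0.01 (adjusted p = 0.938).

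**Figure D4:**
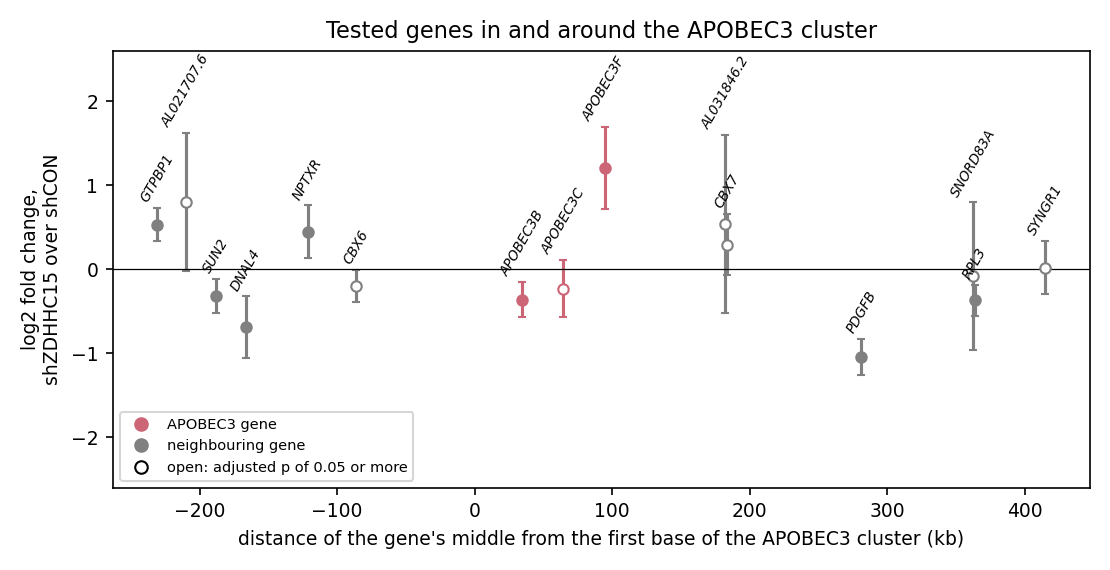
Log2 fold change (shZDHHC15 over shCON, y axis, with 95% intervals) of the tested genes within 250 kb of the APOBEC3 cluster, by the distance in kilobases of the gene's middle from the cluster's first base; APOBEC3 genes are red, neighbours grey, and open symbols did not pass an adjusted p of 0.05. The estimate of APOBEC3F, 1.21, is the highest plotted, but its interval overlaps those of some neighbours, such as AL021707.6. The estimates of APOBEC3B and APOBEC3C lie below 0, and the interval of APOBEC3C includes 0.

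APOBEC1, APOBEC2 and APOBEC4 had at most 2 counts in any sample. ADARB2, ADAD1 and ADAD2, which resemble ADAR but are not known to edit RNA, had at most 3. Another 3 genes, all tested, encode adenosine deaminases of transfer RNA or their subunits. Of these, ADAT1 rose by 0.45 on the log2 scale (adjusted p = 0.00396) and ADAT3 fell by 0.68 (adjusted p = 0.00201). ADAT2 did not pass the test (0.25, adjusted p = 0.274).

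Double-stranded RNA sensors and effectors, which respond to the kind of RNA that ADAR1 edits, were largely called higher. Of 12, 10 were called higher and 1 lower, against 21.7% and 20.3% of all genes tested. Their median log2 fold change was 2.98 against 0.02 for all genes tested. The largest change was that of OAS2, an oligoadenylate synthetase, from 170 and 125 counts to 7216 and 6129 (log2 fold change 5.38, adjusted p = 3.69e-12). OAS3 had the most counts and rose by 3.02 on the log2 scale. IFIH1, which encodes the sensor MDA5, and EIF2AK2, which encodes the kinase PKR, rose by 3.09 and 2.00 (both chosen after their values were seen). PRKRA, an activator of PKR, fell by 0.49, and MAVS, the adaptor of the RNA sensors, did not pass the test (-0.07, adjusted p = 0.587). ADAR, at 1.43, rose by less than the median of this list.

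Of 12 genes of interferon signalling, 10 were called higher and 0 lower by edgeR, against 21.7% and 20.3% of all genes tested. Their median log2 fold change was 1.09. The unadjusted p was under 0.05 for 11 higher and 0 lower genes, and DESeq2 called 10 higher and 0 lower. The kinase gene TYK2 (0.16, adjusted p = 0.225) and the receptor gene IFNAR2 (0.71, adjusted p = 0.0776) did not pass the test. ADAR lay within the range of this list, and APOBEC3B and APOBEC3C lay below every gene of it.

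**Figure D5:**
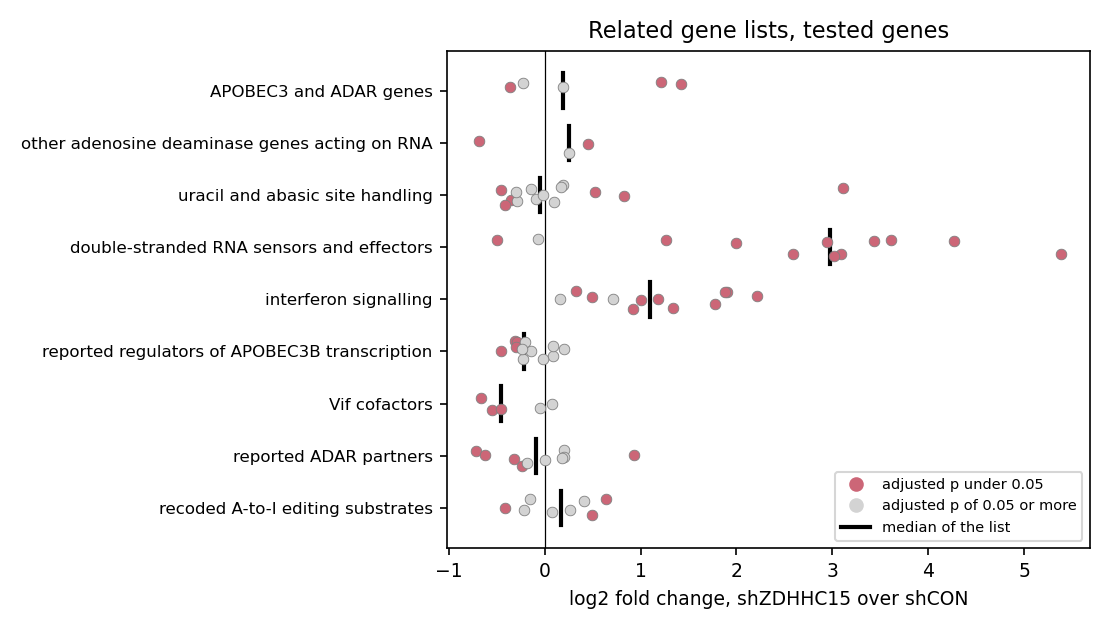
Log2 fold change (shZDHHC15 over shCON, x axis) of the tested genes of each related list; red points passed an adjusted p of 0.05, grey points did not, black bars are list medians, and vertical position within a list is arbitrary. The double-stranded RNA list has a median of 2.98 and the interferon signalling list of 1.09, while the other lists plotted, which leave out the cell type markers, have medians between -0.45 and 0.25.

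Of 12 genes for transcription factors reported to control APOBEC3B, edgeR called 0 higher and 4 lower, against 21.7% and 20.3% of all genes tested. Their median log2 fold change was -0.22. The unadjusted p was under 0.05 for 0 higher and 6 lower genes, and DESeq2 called 0 higher and 4 lower. TEAD4, a DNA-binding partner of YAP, fell by 0.46 (adjusted p = 0.0025), MYBL2, a cell-cycle regulator with the most counts of the list, by 0.32 (adjusted p = 0.011), and the NF-kappaB subunit genes RELB and RELA by 0.30 (adjusted p = 0.0266) and 0.29 (adjusted p = 0.0199). Of the 5 cofactors that Vif takes over to degrade APOBEC3 enzymes, edgeR called 0 higher and 3 lower, against 21.7% and 20.3% of all genes tested. Their median was -0.45. Both DESeq2 and an unadjusted p under 0.05 gave 0 and 3 as well. The ubiquitin ligase subunit genes RNF7, ELOB and ELOC fell by 0.67, 0.55 and 0.45, whereas CBFB (-0.05) and CUL5 (0.07) did not pass the test.

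Genes that handle uracil and abasic sites, the products of cytosine deamination in DNA, were called about as often as all genes tested. Of 14, all tested, 3 were called higher (21.4%, against 21.7% of all genes) and 3 lower (21.4% against 20.3%), with a median log2 fold change of -0.06. SAMHD1, which encodes a nucleotide hydrolase that restricts retroviruses, went from 408 and 363 counts to 3840 and 3379 (log2 fold change 3.11, adjusted p = 6.05e-11), and the base excision repair genes POLB and APEX1, the latter with the most counts, fell by 0.46 and 0.35. The uracil glycosylase gene UNG, named after its values were seen, did not pass the test (-0.09, adjusted p = 0.477).

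Of 10 reported partners of ADAR, 1 was called higher and 4 lower, against 21.7% and 20.3% of all genes tested, with a median log2 fold change of -0.09. DICER1, the microRNA-processing nuclease gene, rose by 0.93 on the log2 scale. Of the 8 tested substrates of recoding by editing, 2 were called higher and 1 lower, close to the shares of all genes, with a median of 0.17. COG3 rose by 0.63, AZIN1 fell by 0.42, and FLNA, with the most counts, did not pass the test (-0.16, adjusted p = 0.146). Gene counts do not show whether these transcripts were edited.

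Leukocytes, in which several APOBEC3 genes are strongly expressed, were looked for by 18 markers. Of these, 7 had 0 counts in every sample, and 10 had at most 3 counts in each. The T cell markers CD3D, CD3E and CD2, the B cell marker MS4A1, the natural killer cell marker KLRD1 and the Fc receptor gene FCGR3A were among those at 0. The summed level of the list was 11.2 and 13.2 CPM in shCON and 7.25 and 7.85 CPM in shZDHHC15. Without CSF1R, which held most of it, the sum was 2.80 and 2.73 against 3.60 and 2.50 CPM, and the groups overlapped. Of the 3 markers tested, edgeR called CSF1R, a macrophage receptor gene, and CD8A, a T cell coreceptor gene, lower. CD8A had 22 and 21 counts in shCON and 14 and 5 in shZDHHC15 (adjusted p = 0.0493). CD14, a lipopolysaccharide co-receptor gene with 9 and 5 counts in shCON and 25 and 22 in shZDHHC15, was called higher by edgeR. DESeq2 called 0 of the 3 higher and 1 lower. Among all genes tested, edgeR called 21.7% higher and 20.3% lower.

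By the smallest root mean square difference of centred log2 CPM over the 4 samples, the protein-coding genes most like ADAR were AFP, ZNFX1 and PADI1, at 0.0285, 0.029 and 0.0302. AFP had between 6 and 24 counts and ZNFX1 between 3025 and 10104. For APOBEC3B they were NDUFS3, TFPI and LMNB2, at 0.00943, 0.00966 and 0.0114. The closest to APOBEC3F was RASL11A at 0.0329, to APOBEC3C TAF12 at 0.00828 and to ADARB1 C15orf41 at 0.00981. These are descriptions of 4 samples in 2 groups, and many genes with like fold changes lie close to each other on this measure.

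Promoters in RefSeq on GRCh38.p14, from 250 bases before to 50 bases after a start, were at hand for 3 of the 9 members, with 3 windows of ADAR, 4 of ADARB1 and 1 of APOBEC3H. On both strands, 0 of the 8 windows held GAAA repeated with 2 or with 1 base of any kind between the copies, which resembles interferon-stimulated response elements, or GGAATG, the core of a TEAD site. Of 35116 promoters of the same length, 3.57%, 3.12% and 14.0% held them. This says only that these letters are not in these windows.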

How the data were processed

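RNA of HCC1954 cells was analysed in 2 shCON and 2 shZDHHC15 samples, grouped by their labels. The authors deposited 1 table of raw counts of reads per gene, not normalized, for 58735 genes. Libraries were made with the NEBNext Ultra kit. The submitters' processing notes name HISAT2, StringTie, SAMtools and hg38 without roles; the counting rule is not given in the sources used here. All 58735 identifiers matched GENCODE 29 on GRCh38 in start, end and symbol.

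Genes were filtered with filterByExpr and compared by glmQLFTest of edgeR 4.0.16 after TMM scaling and glmQLFit with legacy = FALSE (R 4.3.3 with limma 3.58.1), with Benjamini-Hochberg adjustment over 15817 genes. Standard errors were derived from the fold change and F. CPM used TMM-scaled library sizes, and levels per kb the length given in the table. Scripts were tested on simulated counts of 15817 genes, of which 200 were changed by 1.5 on the log2 scale, up or down. There edgeR recovered 84.0% of the changed genes at an adjusted p under 0.05, and 8.7% of its calls were false. DESeq2 recovered 75.0%, with 5.06% false calls. Counts of samples in 1 group differed by more than sampling noise (chi-square per degree of freedom 8.32 and 6.79). The replicate numbers were not taken as pairs.

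The members and lists were chosen with earlier results of these data known. Named were all members, the largest rise, the largest fall and the gene with the most counts of each list (all genes of a list of 6 or fewer), the nearest tested neighbours and the genes most alike in pattern; others were named where a count was 5 or fewer, or after their values were seen. Lists are given by counts and medians. Some results under this rule are not reported here.

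The alternatives were DESeq2 1.42.0 (its size factors, and its Wald test), library size only, upper-quartile factors, the replicate number as a block, edgeR's older quasi-dispersion, no filter, a minimum of 10 counts per sample and leaving out each sample. Where 1 sample is left in a group, it is assumed to vary like the other group. Sequences were read from GENCODE 29 and RefSeq with Python 3.11.15.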

Additional observations from a re-analysis of the deposited data

How the results depend on the processing

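For the 5 tested members, 59 of 60 combinations of member and alternative kept the direction and the call, 1 lost the call and 0 reversed. The lost call was that of APOBEC3B without the second shZDHHC15 sample (-0.34, adjusted p = 0.0716), and the cause was not tested. Leaving out a sample also brought in APOBEC3A, which passes the filter only in such fits, and only in those that keep the first shZDHHC15 sample. For the listed genes it gave 26 to 29 called higher and 10 to 20 called lower, against 27 and 17 with all samples. The lowest, 10, was reached without the first shZDHHC15 sample. Over all genes it gave 2524 to 3406 higher and 2201 to 3476 lower, against 3427 and 3217. With no filter on low counts, 2282 of 30168 genes were called higher. With the replicate number as a block, ADAR had a log2 fold change of 1.42, APOBEC3F of 1.21 and APOBEC3B of -0.36, and no member's call changed. The deviations of samples with the same number correlated at 0.034, so the numbers were not read as pairs. Scaling by library size alone moved the median log2 fold change of all genes to 0.09 and the calls to 3926 higher and 2545 lower over all genes and 31 and 13 over the listed genes, and no member changed direction. Depth limits the 4 APOBEC3 genes with few counts, whose absence cannot be read from these libraries.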
